A study of Caenorhabditis elegans with 2 samples.

Results

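The genes described here are 9 genes of touch receptor neuron fate in *Caenorhabditis elegans*: the transcription factor genes unc-86, mec-3 and alr-1, the channel genes mec-4 and mec-10, the tubulin genes mec-7 and mec-12, the tubulin acetyltransferase gene mec-17, and mec-18. They were chosen by name, out of 19973 protein-coding genes, for their place in the lineage of touch and PVD neurons that AHR-1 patterns. Lists of regions from ChIP-seq, the sequencing of DNA that comes down with an antibody, were used for AHR-1, the worm aryl hydrocarbon receptor, a bHLH-PAS transcription factor. All samples were hermaphrodite late embryos of strain OP562, which carries unc-119(tm4063) and the transgene wgIs562, a fusion of AHR-1 to GFP-FLAG at its C-terminus. They were collected 3.5 h after egg bleaching, and the tagged protein was precipitated with an anti-GFP antibody, although another label names ahr-1 for the antibody. The promoter that drives the transgene is not stated in the labels, and all samples carry the same unc-119 allele. The 2 biological replicates form a single group and nothing was varied between them. The question for each gene is where, and how strongly, the tagged protein was found near it.

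Touch receptor neurons sense gentle touch along the body. The POU homeodomain protein UNC-86 turns on mec-3, and its product, a LIM homeodomain protein, joins UNC-86 on the DNA of the genes that make the neuron a touch sensor. PVD is a neuron with highly branched dendrites that also needs MEC-3, and loss of ahr-1 makes the touch neuron AVM resemble PVD. AVM and PVD arise after hatching, and touch neurons are few among the cells of a worm. Chromatin of whole animals was used here, so binding in a few cells and the absence of binding cannot be told apart where no region was listed.

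Each region in the deposited lists has a signal value from the authors' peak caller, on a scale of its own in each list, and is given here with its rank by signal within its list. The pooled list, called from both replicates together, held 13858 regions, the list of replicate 1 held 22949 and that of replicate 2 held 23313. These 3 lists precede any threshold and include background regions. The 479 regions that passed IDR, the authors' threshold on how well ranks match between replicates, had signals of at least 69.2. A region was assigned to a gene when it overlapped, by at least 1 bp, the gene or the 5000 bp on either side of it. Positions are on build ce11 and are counted from 1, and no test was made, since the genes were listed with earlier results in view and there was 1 group.

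No IDR region lay at any of the 9 genes, and only weak regions were listed there. Of all coding genes, 7.18% had an IDR region in such a window. The count of 0 among 9 allows a share of up to 33.3%, so it does not set these genes apart. A pooled region lay in the windows of 7 of the 9 genes, against 77.1% of all coding genes, and none in those of mec-3 and mec-10. The 7 genes had 12 pooled regions between them, all 444 bp wide, with signals from 28.4 to 47.7 and a median of 35.6. The median over all pooled regions was 32.8. The −log10 q values of the 12 ran from 0.0317 to 0.559, while the lowest in the IDR list was 1.94. Per kb of window there were 0.0962 pooled regions at the 9 genes and 0.141 over all coding genes. The windows had a median length of 13597 bp, and of 12026 bp over all coding genes.

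**Figure D1:**
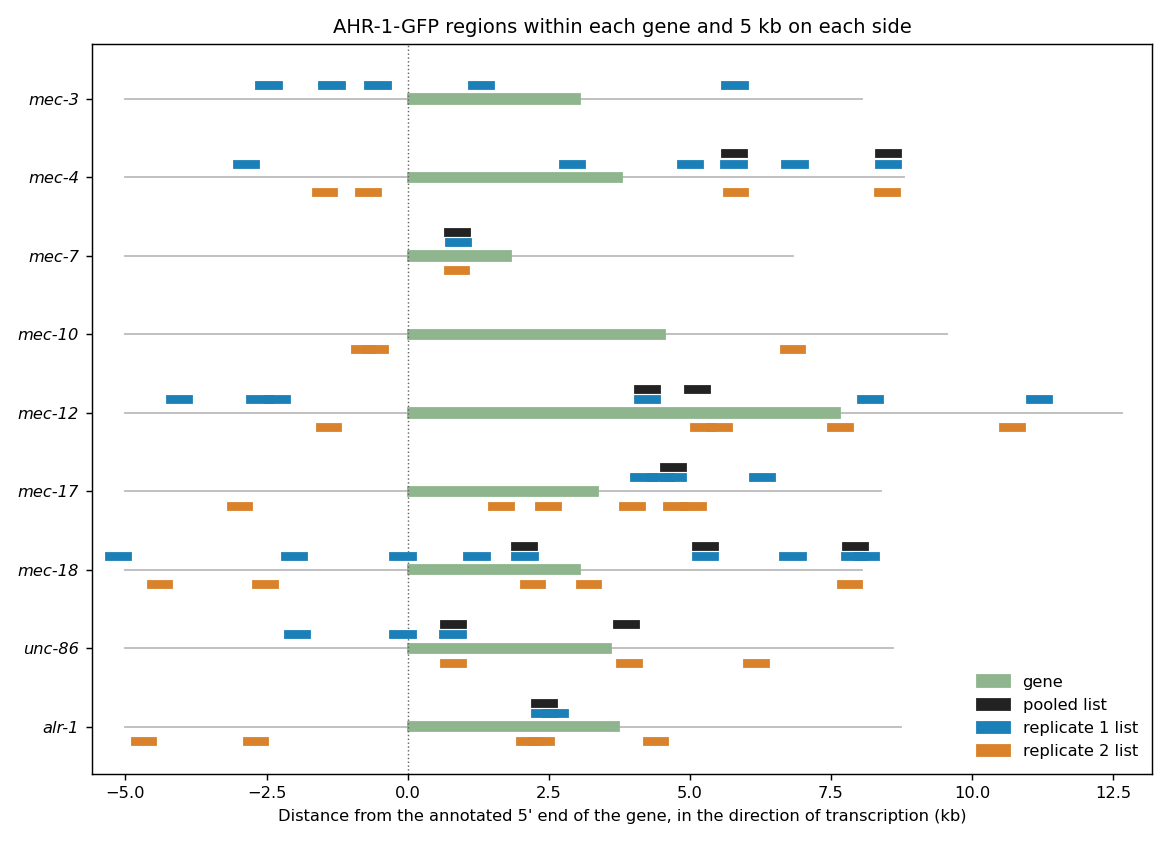
Regions of the pooled list and of each replicate list along the 9 genes, by distance from the annotated 5′ end of the gene in kb, with the gene as a green bar and the 5 kb flanks as a grey line. The 12 pooled regions lie within or beyond the genes, and none has its summit upstream of a gene.

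The 12 pooled regions all lay downstream of the 5′ ends. No member had a pooled summit in the 1500 bp upstream of the gene, against 22.1% of coding genes. As above, a count of 0 among 9 allows a share of up to 33.3%, so it does not set these genes apart. In the window from 1500 bp upstream to 500 bp downstream of any coding 5′ end, 1 gene had a pooled summit, against 29.9% of all. This was unc-86, through the start of a shorter transcript. Summits within the gene itself were found at 5 of the 9, against 27.1% of coding genes. These shares take no account of gene length. The median window, with equal flanks, was 13597 bp at these genes and 12026 bp over all coding genes, so no excess is read from them. Of the 12 summits, 6 were in coding exons (against 21% of all pooled summits), 4 in introns and 2 between genes. The nearest coding 5′ end was that of the assigned gene for 4 of the 12 and that of a neighbour for 8.

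The core of the response element of aryl hydrocarbon receptors, GCGTG, was not found at the 12 summits. Within 100 bp of the summit, on either strand, it was at 0 of 12 regions, which allows a share of up to 25%. The share over all pooled regions, 16.9%, was below that limit, and the share over the IDR list, 40.3%, was above it. The limit takes the 12 regions as independent draws, and they come from genes chosen by name, so no conclusion is drawn from it. Sequences are shown around the summit of the region within mec-7, the strongest of those inside any of the 9 genes. They are also shown around the summits within alr-1, mec-18 and unc-86. Each spans 30 bases to either side of the summit, read from the RefSeq sequence of WBcel235 on the plus strand. None has capitals, which would mark GCGTG on either strand.

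mec-7, coding exon, chrX:7775776-7775836: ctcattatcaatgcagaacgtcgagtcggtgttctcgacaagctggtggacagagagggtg
alr-1, coding exon, chrX:11123167-11123227: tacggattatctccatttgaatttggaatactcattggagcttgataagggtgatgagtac
mec-18, coding exon, chrX:4272112-4272172: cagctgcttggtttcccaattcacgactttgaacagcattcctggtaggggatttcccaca
unc-86, intron, chrIII:8215500-8215560: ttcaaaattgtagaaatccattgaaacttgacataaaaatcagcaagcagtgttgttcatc

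Within 100 bp of the 12 summits the share of G and C ran from 28.4% to 48.8%, with a median of 41%, and the median over all pooled summits was 38.8%. The 48.8% belonged to mec-7.

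The selector gene unc-86 (WBGene00006818, chrIII:8212740-8216336, minus strand) had 2 pooled regions. One lay 274 bp beyond the 3′ end of the gene, at chrIII:8212244-8212687, with a pooled signal of 32.4 and rank 7191 of 13858. In replicate 2 it had a signal of 22.1 and rank 1528 of 23313, among the strongest 6.55% of that list, and in replicate 1 no region overlapped it. The other, at chrIII:8215308-8215751, had its summit in an intron, 806 bp downstream of the 5′ end. It had a pooled signal of 29.6 and rank 10028. It was listed in both replicates, with a signal of 15.5 and rank 22316 of 22949 in replicate 1 and a signal of 13.1 and rank 11665 in replicate 2. The region that was high in 1 replicate was thus missing from the other, and the one in both was near the end of the list of replicate 1.

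mec-3 (WBGene00003167, chrIV:10458816-10461867, minus strand), the gene that UNC-86 turns on and that both touch neurons and PVD need, had no pooled region. The nearest pooled summit was 19515 bp from the gene, and the nearest IDR summit 22069 bp. Replicate 1 alone listed regions there, 5 in number, and replicate 2 listed none. Of the 5, one at chrIV:10462168-10462617 had its summit 526 bp upstream of the 5′ end, with a signal of 19.1 and rank 12667, and one at chrIV:10462986-10463435 had its summit 1344 bp upstream, with a signal of 17.2 and rank 17156. The strongest, at chrIV:10464096-10464545 with a signal of 19.7 and rank 11466, was nearer to ugt-43, a UDP-glycosyltransferase gene whose 5′ end lay 267 bp from the summit. Another, at chrIV:10460334-10460783, had its summit in a coding exon of mec-3, with a signal of 16.5 and rank 19080. The 5 ranked from 50% to 83.1% of the list of replicate 1.

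alr-1 (WBGene00044330, chrX:11121871-11125620, minus strand) encodes an aristaless-type homeodomain protein that helps to secure mec-3 expression. Its pooled region at chrX:11122975-11123418 lay in a coding exon, 2423 bp downstream of the 5′ end, with a signal of 35.8 and rank 4841. Replicate 1 gave a signal of 22.2 and rank 7562 there, and replicate 2 gave 15.6 and rank 6447. The ranks corresponded to 34.9% of the pooled list, 33% of that of replicate 1 and 27.7% of that of replicate 2. The 5′ end nearest to the summit was that of R08B4.3, 2192 bp away, although the summit was inside alr-1.

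The channel genes had no pooled region within them. mec-4 (WBGene00003168, chrX:16803321-16807115, minus strand) encodes the main pore subunit of the touch channel, a degenerin. Its window held 2 pooled regions, both beyond its 3′ end and inside aak-2, the gene of an AMP-activated kinase subunit. The stronger, at chrX:16801109-16801552, had its summit in a coding exon of aak-2, 1990 bp beyond mec-4. It had a pooled signal of 47.7 and rank 1425, the highest signal of the 12 regions. Its signal was 28.3 with rank 2703 in replicate 1 and 17.3 with rank 4246 in replicate 2. The weaker one, at chrX:16798375-16798818 in an aak-2 intron, had a pooled signal of 37.7 and rank 3961, a replicate 1 signal of 21.9 with rank 7947, and a replicate 2 signal of 11.8 with rank 15764. Both replicates listed both regions, and both summits had aak-2 as the nearest coding 5′ end. Within mec-4 only replicate 1 had a summit, in a coding exon at chrX:16803972-16804421, with a signal of 21.3 and rank 8800.

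mec-10 (WBGene00003174, chrX:8465760-8470314, minus strand) encodes another degenerin of the channel, and PVD expresses it too. It had no pooled region, and the nearest pooled summit was 6278 bp from the gene. Replicate 2 listed 3 regions in its window and replicate 1 none, the reverse of mec-3. Of the 3, a pair of overlapping regions had summits 569 and 772 bp upstream of the 5′ end, with signals of 11.1 and 11.6 and ranks 18594 and 16767. The third, with a signal of 10.4 and rank 22039, lay 128 bp upstream of the neighbouring gene F16F9.4.

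The tubulin genes had their pooled regions in coding exons. mec-7 (WBGene00003171, chrX:7774856-7776689, minus strand) encodes the β-tubulin of the large microtubules of touch neurons. Its region at chrX:7775584-7776027 had its summit 883 bp downstream of the 5′ end. The pooled signal was 47.2 with rank 1484, and this was the only region in the window in the pooled list and in each replicate list. Replicate 1 gave a signal of 21.95 and rank 7828, and replicate 2 a signal of 20.8 and rank 1963, so the region was in the upper 34.1% of one list and the upper 8.42% of the other. The window also holds 3 tRNA genes, and no list had a region within 250 bp of any of them.

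mec-12 (WBGene00003175, chrIII:3131574-3139234, minus strand) encodes the α-tubulin that MEC-17 acetylates. It had 2 weak pooled regions in coding exons, 5130 and 4251 bp downstream of the 5′ end. The first, at chrIII:3133882-3134325, had a pooled signal of 29.0 and rank 10627 and was overlapped in replicate 2 only. The strongest overlapping region there had a signal of 12.4 and rank 13883, with its summit 392 bp from the pooled one. A weaker one, at chrIII:3133782-3134217, had its summit closer to the pooled one, with a signal of 10.7 and rank 20166. The second, at chrIII:3134761-3135204, had a pooled signal of 28.4 and rank 11387 and was listed in replicate 1 only, with a signal of 18.6 and rank 13918. Neither region was therefore in both replicates. Each replicate alone listed a stronger region elsewhere in the window. In replicate 1 it lay in an intron of C44B11.4, 4043 bp upstream of mec-12, with a signal of 25.3 and rank 4408, or 19.2% of the list. In replicate 2 it lay 14 bp beyond the 3′ end of mec-12, in the 3′ UTR of Y53G8B.1, with a signal of 16.98 and rank 4570, or 19.6% of the list. Of the 6 regions of replicate 1 in the window 1 had its summit within mec-12, and of the 5 of replicate 2 there were 2. The strongest region in the window was thus at 76.7% of the pooled list and nearer the top of each replicate list. Among regions with summits within mec-12, the strongest was at 60.6% of the list of replicate 1 and 59.6% of that of replicate 2. The mec-7 and mec-12 regions resemble other tubulin genes. Over all 444 bp the mec-7 region was 79.5% identical to tbb-1. The second mec-12 region was 80.9% identical to tba-2 over 366 bp, and the first was 73.2% identical to tba-9 over 235 bp. No source used here says how reads with several matches were handled, and the part of such reads in these regions was not tested. Of the other 9 pooled regions, 8 had no such second match, and that at arf-5 matched arf-1 over 44 bp.

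mec-17 (WBGene00003178, chrIV:7983802-7987183, minus strand) encodes the acetyltransferase that modifies MEC-12. Its only pooled region, at chrIV:7982250-7982693, lay 1330 bp beyond the 3′ end and 54 bp upstream of the 5′ end of arf-5, an ADP-ribosylation factor gene. The pooled signal was 35.4 with rank 5081. The strongest overlapping region had a signal of 19.0 and rank 13019 in replicate 1, with its summit 223 bp from the pooled one, and a signal of 19.8 and rank 2396 in replicate 2, with its summit 358 bp away. Weaker overlapping regions had summits closer to the pooled one, with a signal of 18.6 and rank 13766 at the same base in replicate 1 and a signal of 15.05 and rank 7321 in replicate 2. Each replicate thus listed more than 1 summit around arf-5. Within mec-17 only replicate 2 had summits, at ranks 12323 and 17027. They lay 9 and 847 bp upstream of the coding 5′ end of a shorter mec-17 transcript.

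mec-18 (WBGene00003179, chrX:4271165-4274216, minus strand), which encodes a protein related to acyl-CoA synthetases, had the most pooled regions of the 9 genes, with 3. Only the weakest was within it, at chrX:4271920-4272363 in a coding exon, with a pooled signal of 30.4 and rank 9086, a replicate 1 signal of 20.3 with rank 10425 and a replicate 2 signal of 11.2 with rank 18164. The strongest, at chrX:4268715-4269158, had its summit in an intron of the neighbour coel-1, 2228 bp beyond mec-18. It had a pooled signal of 43.3 and rank 2133. In replicate 1 its signal was 37.5 and its rank 759 of 22949, the best rank that any of the 12 regions had in replicate 1, and replicate 2 listed no region there. The third, at chrX:4266056-4266499, lay in a coel-1 intron 427 bp downstream of the coel-1 5′ end, with a pooled signal of 39.6 and rank 3217. Both replicates listed it. The strongest overlapping region had a signal of 23.4 and rank 6196 in replicate 1, with its summit 197 bp from the pooled one. In replicate 2 it had a signal of 19.3 and rank 2701. A weaker one in replicate 1, with a signal of 22.7 and rank 6880, had its summit closer to the pooled one.

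**Figure D2:**
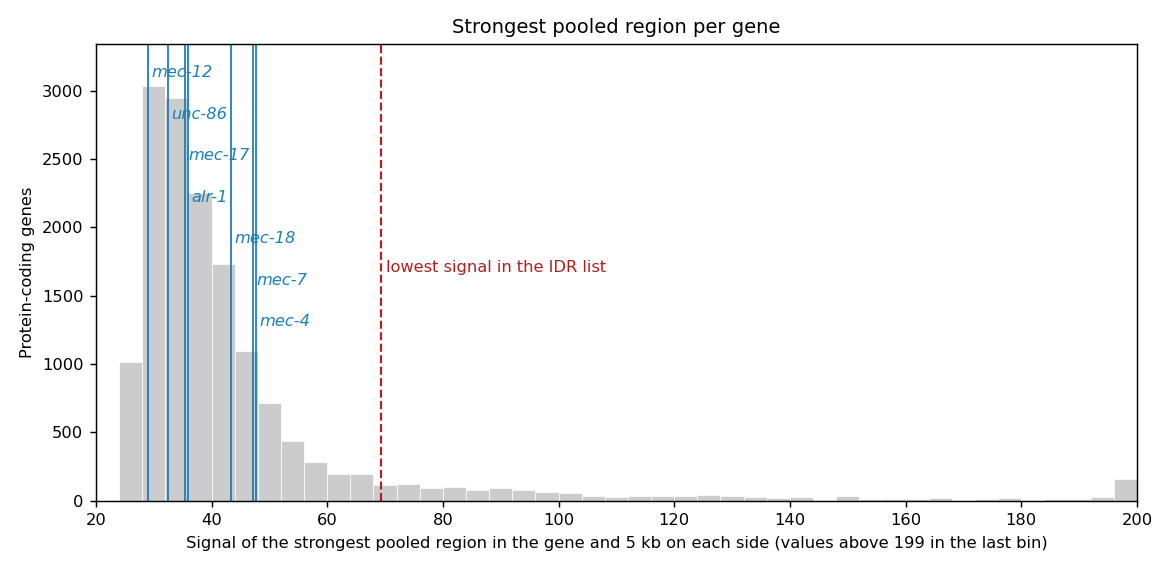
Signal of the strongest pooled region in the gene and 5 kb on each side, for all coding genes with such a region (grey bars, number of genes) and for 7 of the 9 genes (blue lines); the last bar also holds all higher signals. The blue lines lie between 29.0 for mec-12 and 47.7 for mec-4, all below the lowest signal in the IDR list, 69.2 (red dashed line).

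Ordered by the signal of the strongest pooled region, mec-4 and mec-7 came first at 47.7 and 47.2, then mec-18 at 43.3, alr-1 at 35.8, mec-17 at 35.4, unc-86 at 32.4 and mec-12 at 29.0. The pooled list has no error for these values, so the order of neighbours in it, such as mec-4 and mec-7, was not tested. For mec-4, mec-18, mec-17 and unc-86 the strongest region had its summit outside the gene, so the order is one of windows. The pooled regions within mec-18 and unc-86 had signals of 30.4 and 29.6, and mec-4 and mec-17 had none within them. Of all coding genes, 16.9% had a strongest signal at or above that of mec-4 and 68.2% one at or above that of mec-12. The median over the 7 genes was 35.8, against 37.1 over the coding genes with a pooled region. The nearest IDR summit lay between 22069 bp from the gene (mec-3) and 379438 bp (mec-7), with a median of 35944 bp. The median over all coding genes was 79086 bp.

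**Figure D3:**
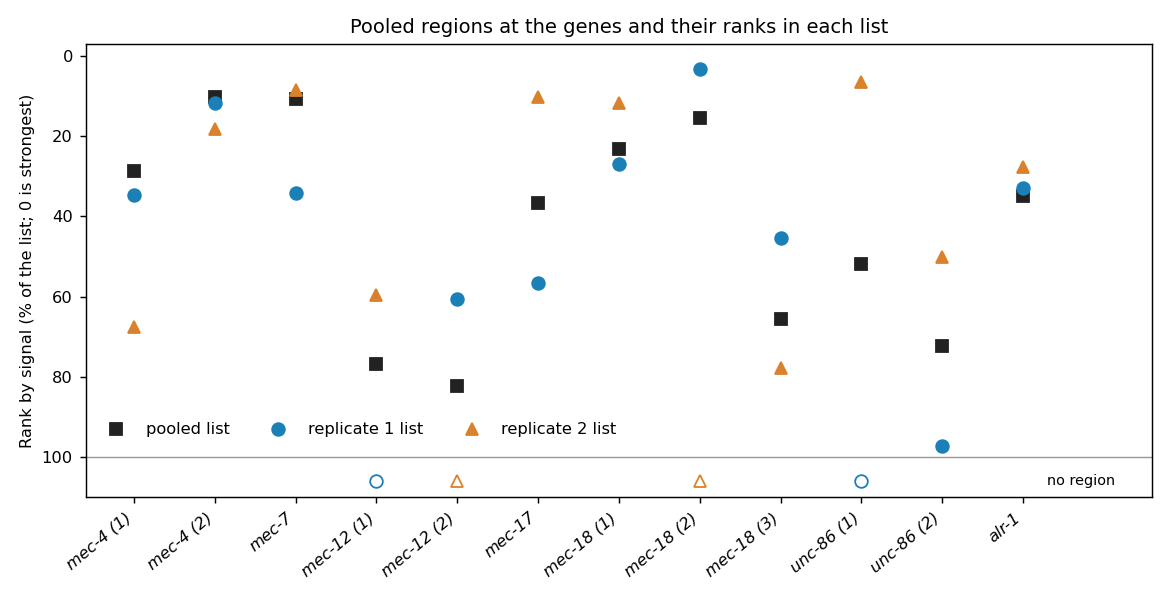
Rank by signal, as a percentage of each list (0 is the strongest), of the 12 pooled regions in the pooled list (squares) and of the strongest overlapping region in replicate 1 (circles) and replicate 2 (triangles); regions of 1 gene are numbered by rising coordinate, and open symbols mark no overlapping region. The region at alr-1 lies at 33% and 27.7% of the replicate lists, while 4 regions are missing from 1 replicate.

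Most of the 12 pooled regions were listed in both replicates. Of the 12, 8 overlapped a region in both replicates, 2 in replicate 1 only and 2 in replicate 2 only, and the share of all pooled regions in both was 55.3%. A pooled region found in both lay in the windows of 6 of the 9 genes, against 55.4% of coding genes. In the strongest 25% of the pooled list 88.2% of regions were in both replicates, and 3 of the 4 at these genes were. In the weakest 25% the share was 29.2%, and neither of the 2 at these genes was. A region of replicate 1 lay in the windows of 8 genes (against 90.9%), all but mec-10, and a region of replicate 2 in those of 8 (against 91.8%), all but mec-3. Replicate 1 had 36 regions there and replicate 2 had 32. Of the 36, 12 overlapped a region of replicate 2, or 33.3%, and over the whole list of replicate 1 this was 40.6%. The pooled list held a region overlapping 36.1% of the 36 and 54.3% of all regions of replicate 1, and for replicate 2 these shares were 40.6% and 44.3%.

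Upstream of the genes, where UNC-86 and MEC-3 act, the replicates listed summits at different genes within 1500 bp. In the 1500 bp upstream replicate 1 had summits at 3 genes (mec-3, mec-18 and unc-86), against 31.9% of coding genes. Replicate 2 had them at 3 other genes (mec-4, mec-10 and mec-12), against 33.4%. No gene had summits of both, against 17% of coding genes, and the same upper limit of 33.3% applies. At mec-18 and unc-86 the summit of replicate 1 lay 84 bp upstream of the 5′ end, with signals of 19.7 and 19.2 and ranks 11436 and 12464. The mec-18 summit lay in the 5′ UTR of the neighbour C52B9.10. At mec-12 that of replicate 2 lay 1397 bp upstream, with a signal of 15.05 and rank 7336. At mec-4 those of replicate 2 lay 691 and 1465 bp upstream, in coding exons of cas-1, with signals of 11.08 and 11.41. mec-7, mec-17 and alr-1 had no summit of any list in the 1500 bp upstream of the gene. Farther out, replicate 2 had summits 2968 bp upstream of mec-17 and 2685 and 4675 bp upstream of alr-1.

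The element that UNC-86 and MEC-3 bind, AATGCAT, lies upstream of most of these genes, and none of its matches there lay in a pooled region. Its matches in the 250 bp upstream are shown because UNC-86 and MEC-3 bind this element. Whether each match is a control site was not tested. The matches are read 5′ to 3′ on the strand of the gene from the same RefSeq sequence, with the element in capitals on either strand. An overlap of both orientations, AATGCATT, counts as 1 site.

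mec-3, 108 bp upstream, chrIV:10461962-10461988: cttcataagaAATGCATctattatcgt
mec-3, 235 bp upstream, chrIV:10462088-10462115: attcattcgaAATGCATTgcccataatg
mec-7, 126 bp upstream, chrX:7776802-7776828: ttcgaatgccATGCATTtgttgatgat
mec-10, 13 bp upstream, chrX:8470315-8470340: cccacttacaAATGCATTcgttttgt
mec-17, 59 bp upstream, chrIV:7987229-7987255: gctcaccaaaAATGCATgagaatgggg
mec-18, 65 bp upstream, chrX:4274268-4274294: ttgcactggtATGCATTtgtgatgcga

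In the window from 250 bp before to 50 bp after the gene start, 5 of the 9 genes held AATGCAT on either strand (mec-3, mec-7, mec-10, mec-17 and mec-18), against 4.52% of coding genes. This is a property of the sequence that is known for these genes and not a result of the precipitation. In the 1500 bp upstream there were 10 sites at 8 genes, all but alr-1, and 20.4% of coding genes had one there. The site at mec-18, in the 5′ UTR of C52B9.10, lay in a region of replicate 1, and that at mec-12, 1289 bp upstream, in a region of replicate 2.

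The response element core GCGTG was found in the same 250 and 50 bp window at 4 of the 9 genes, mec-3, mec-7, mec-10 and unc-86, against 19.1% of coding genes. In the 1500 bp upstream it was at 5 genes, with alr-1, against 56.6% of coding genes, with 7 sites in all. None of the 7 lay in a pooled region, and 2 lay in a region of replicate 1. Those 2, at mec-3 and unc-86, are the only sites of this core within the 1500 bp that lay in a listed region, and are shown with the site nearest to the 5′ end of mec-3 and the nearest ones of mec-7, mec-10 and alr-1 for comparison, on the strand of the gene, with GCGTG or its other strand CACGC in capitals.

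mec-3, 572 bp upstream, in a replicate 1 region, chrIV:10462427-10462451: cctgccaagaCACGCacccacctac
unc-86, 111 bp upstream, in a replicate 1 region, chrIII:8216435-8216459: tgaaaatgggGCGTGcactagccac
mec-3, 16 bp upstream, chrIV:10461871-10461895: attggcatgcCACGCctacatgaca
mec-7, 64 bp upstream, chrX:7776741-7776765: tggtggctgtGCGTGgtgcagagct
mec-10, 200 bp upstream, chrX:8470502-8470526: tttccgttttGCGTGacttttgacg
alr-1, 269 bp upstream, chrX:11125877-11125901: gcgattttggGCGTGgacttttatt

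**Figure D4:**
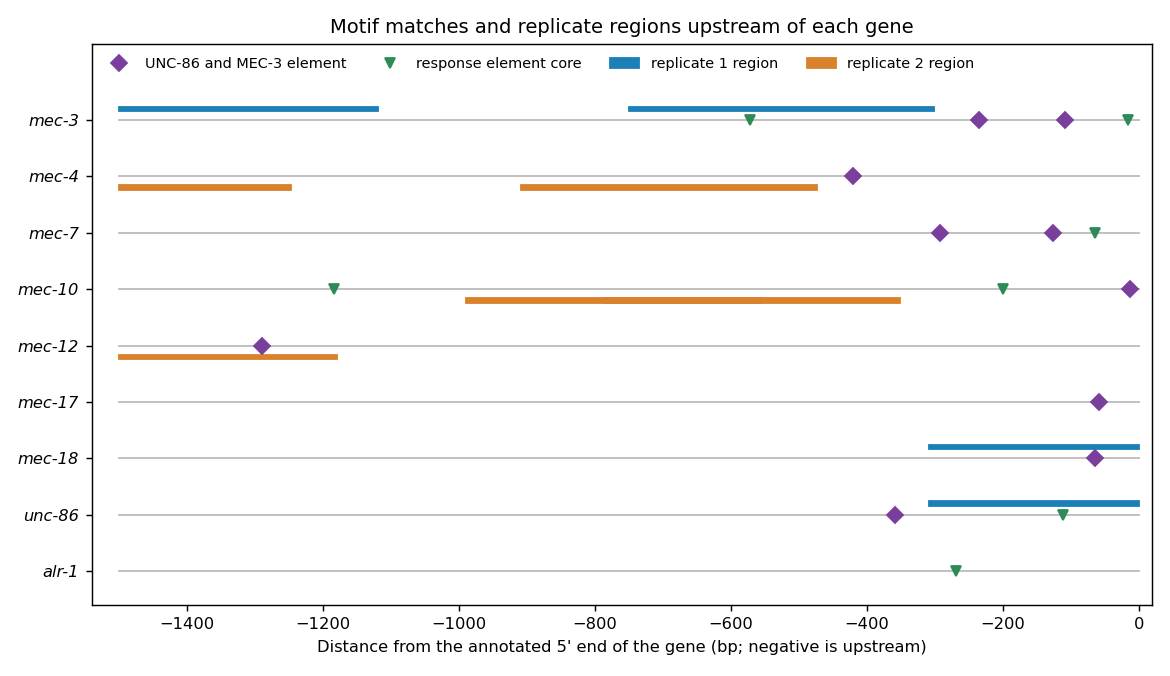
Matches to the UNC-86 and MEC-3 element (diamonds) and to the response element core (triangles) in the 1500 bp upstream of each gene, with the replicate regions there as bars; the x axis is the distance from the annotated 5′ end in bp. No pooled region is in this range, and 4 of the 17 matches lie under a bar of 1 replicate.

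Other genes of touch and PVD neurons, a larger set, gave a wider range. There were 26 such genes, which include the receptor gene ahr-1 and its partner aha-1. A pooled region lay in the windows of 23 of them, against 77.1% of coding genes. A pooled region found in both replicates lay in those of 18, against 55.4%, and an IDR region in those of 3, against 7.18%. Per kb of window they had 0.177 pooled regions, against 0.141 over all coding genes. The highest signal was 466.6, of rank 3, near hpo-30, the gene of a claudin-like protein of PVD dendrites. Its region lay in an intron of frm-7 at 2 snoRNA genes, 6720 bp downstream of the hpo-30 5′ end. The next was 138.3, of rank 112, near lin-32, the proneural bHLH gene of the touch lineage, and lay between genes at a tRNA gene, 2921 bp downstream of the lin-32 5′ end. The third was 105.3, of rank 208, in an intron of lin-17, a Wnt receptor gene, 750 bp downstream of its 5′ end and with no small RNA gene within 250 bp. Of these 3 regions, those near hpo-30 and lin-17 had GCGTG within 100 bp of the summit, and all were in both replicates.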

How the data were processed

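Each replicate list, the pooled list and the IDR list on ce11 were used as the authors deposited them. The pooled list came from the alignments of both replicates together, and the IDR list from the 3 other lists, per the deposited file descriptions. Each of the 3 lists also drew on a further file that is not described there, and the labels name a possible control. Aligner, caller, settings, IDR threshold and depth are given in no source used here, so the precision of a single signal is unknown. Each region carries a deposited signal and a deposited −log10 q value. The signal was used to rank regions within a list and to compare signals and their medians within the pooled list. The lowest signal of the IDR list was set beside the pooled signals. Regions within 1 list can overlap, because nearly all have 1 fixed width around a summit.

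Genes came from Ensembl release 115 (WBcel235, which is ce11), and chromosome lengths fitted the lists. The ce10 lists were not used. Python 3.11.15 with numpy 2.4.6, pandas 2.3.3 and matplotlib 3.10.9 counted overlaps. The same windows were applied to all coding genes, and the counting was checked on planted regions. Second matches came from blastn 2.17.0 with an E-value limit of 1e-05. Motifs were searched on both strands. The promoter sequences were cut from the RefSeq genome, since no promoter table was used. The named genes were the 9 members, the 3 of highest pooled signal among the 26 others, and the neighbours nearest to a region. The members and lists were chosen with earlier results of these data known. No test was made. Upper limits are 3 counts divided by the number of genes or regions, which is approximate for sets this small. They cover counting error only and take the genes or regions as independent. Alternatives were other windows, stricter signal limits, each replicate alone and other overlap rules. The 1500 bp window for AATGCAT was added after seeing the data.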

Additional observations from a re-analysis of the deposited data

How the results depend on the processing

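No IDR region was found at any of the 9 genes with windows of 0, 2000 or 10000 bp around the gene, in the promoter window, or with summits in place of overlaps. The number of genes with a pooled region was 7, and it was between 5 and 8 with these flanks and with the upper 50% by signal. It was 1 in the promoter window (1 region, at 72.4% of the list), 3 when the nearest coding 5′ end had to be that of the gene (4 regions, median of the strongest 51.9% of the list) and 3 in the upper 25% by signal (4 regions). For the promoter window, 29.9% of coding genes had a pooled summit, and 27.1% had one within the gene. For the other settings no share over all coding genes was computed, so those counts do not show whether the falls are particular to these genes. The number of regions, 12, was 6 within the genes, where the strongest had a median rank of 65.6% against 34.9%, 19 with 10000 bp on each side and 7 in the upper 50% by signal. With 1 replicate left out, the other list gave 32 to 36 regions at 8 genes each time, with a median rank of the strongest between 14.9% and 33.5%; both lists are longer than the pooled list. The strongest region of mec-12 moved from 76.7% of the pooled list to 19.2% and 19.6% of the replicate lists, where its summit lay outside the gene. Support by both replicates was 8 of 12, 8 with at least 0.5 of both regions overlapping (47.2% of all pooled regions) and 7 with summits at most 100 bp apart (33%). GCGTG was at 0 of 12 within 50 bp and within 250 bp of the summit, against 9.85% and 32.1% of all. The limit of 25% for 0 of 12 takes the regions as independent, so no conclusion is drawn from the latter share lying above it. AATGCAT was upstream of 8 genes with the longer window, against 5. The unknown read depth limits what a missing region shows.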
